A study of Mus musculus with 12 samples.

Results

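Astrocyte marker genes were followed gene by gene through the somas and neurites of hippocampal cultures, with and without proteasome inhibition. The 10 genes, Gfap, Aqp4, Slc1a2, Slc1a3, Aldh1l1, Gja1, Aldoc, Sox9, S100b and Glul, were chosen by name from the 27179 genes listed by Entrez identifier in each library. All 10 were found, and all 10 passed the filter on low counts, which left 14185 genes for testing. The lowest count of any member in any library was 113, for Aldh1l1 in MG132 somas replicate 2.

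The cultures were primary hippocampal neurons from newborn mice (postnatal day 0), grown on Transwell inserts for 17 or 18 days and collected as 4 groups of 3 libraries, namely somas and neurites of control (Ctrl) cultures and somas and neurites of MG132 cultures. A Transwell insert holds a porous membrane, so that cell bodies stay above it and processes grow through to its lower face. Per the study's methods, somas were scraped off, and the membrane itself was then cut out and lysed as the neurite fraction. Any cells that scraping left on the membrane would be counted with the neurites, and their share was not tested. MG132, an inhibitor of the proteasome, was given at 10 μM for 7 h, and Ctrl cultures received its solvent, DMSO. The labels give the strain of every library as C57BL/6, while the study's methods name both C57BL/6 and FVB mice as the source of its neurons. All groups shared the culture protocol, and the labels name no transgene. The sources used here do not state whether glial growth was blocked in these cultures, nor whether the replicates of a group came from separate cultures, so p-values measure the spread between libraries, which may be technical.

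Astrocytes are glial cells that clear glutamate and potassium around synapses, supply neurons with metabolites and are joined to each other by gap junctions. They extend fine processes, and some of their mRNAs are carried into these processes. On a Transwell membrane, any process thin enough to pass a pore can reach the lower face. The neurite fraction is thus what stayed with the membrane after scraping, and is not defined by cell type. In a culture that holds several cell types, fewer cells of a type and less RNA per cell cannot be told apart from counts.

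The lowest total count of a library was 4247610 and the highest 22166347. Genes of chromosome MT took 9.78% to 29.2% of these counts, and the most abundant gene took 12.4% to 33.4%. Levels are given as CPM, a count relative to the total of its library, scaled with TMM factors, which ranged from 0.567 to 1.44. Neurite libraries had factors of 0.567 to 0.999 and soma libraries had factors of 1.18 to 1.44, so the choice of scaling moved every comparison of neurites with somas. Scaled to total counts instead, the median gene was lower in neurites by 0.70 on the log2 scale in Ctrl and by 0.86 in MG132 neurons, against 0.04 and 0.08 lower with TMM factors.

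The labels name the material as hippocampal neurons, and all 14 neuron markers checked (Rbfox3, Map2, Tubb3, Snap25, Syt1 and others) had counts in every group. Levels of different genes are compared per length, as CPM per kilobase of annotated exon. On this scale the median of the 14 neuron markers was 20.9 in Ctrl somas and 12.4 in Ctrl neurites, and the median of the 10 astrocyte marker genes was 63.6 and 86.9. In MG132 neurites the medians were 13.3 for the neuron markers and 63.2 for the astrocyte marker genes, while in MG132 somas they were 18.8 and 18.3. Except in MG132 somas, the median astrocyte marker gene thus stood above the median neuron marker in cultures labelled as neurons. Of 93 other genes used to describe astrocytes, 90 passed the filter on low counts.

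The order of the 10 genes differed between the fractions. In Ctrl somas, Gfap stood first at 466 ± 123 CPM per kilobase (SD, n = 3), place 16 of 13473 tested genes with an annotated length. It was followed by Slc1a3 at 119.8 ± 11.2, Slc1a2 at 109 ± 11.97 and Glul at 99.8 ± 8.24 CPM per kilobase, whose libraries overlapped from one to the next. Aqp4 at 68.7 ± 0.714, Aldoc at 58.5 ± 15.2 and S100b at 49.7 ± 11.2 came next, apart from Glul and overlapping from one to the next. Sox9 at 34.8 ± 4.29, Gja1 at 15.0 ± 2.18 and Aldh1l1 at 6.72 ± 1.42 CPM per kilobase were the lowest. S100b and Sox9 overlapped, while Sox9, Gja1 and Aldh1l1 were apart from each other in all 3 libraries.

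In Ctrl neurites, Gfap reached 4219 ± 784 CPM per kilobase and place 8 of 13473 genes. Glul at 278 ± 44.3 and S100b at 277 ± 19.3 stood next with overlapping libraries, at places 46 and 47, above Slc1a2 at 219 ± 43.2 and Slc1a3 at 112 ± 4.33. S100b thus stood below Aqp4 in Ctrl somas and above it in Ctrl neurites. Aldoc at 61.7 ± 28.3 and Aqp4 at 59.2 ± 3.57 CPM per kilobase overlapped. Sox9 at 26.0 ± 4.59, Aldh1l1 at 15.3 ± 3.63 and Gja1 at 7.08 ± 2.84 were again lowest, with Gja1 now the last.

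**Figure D1:**
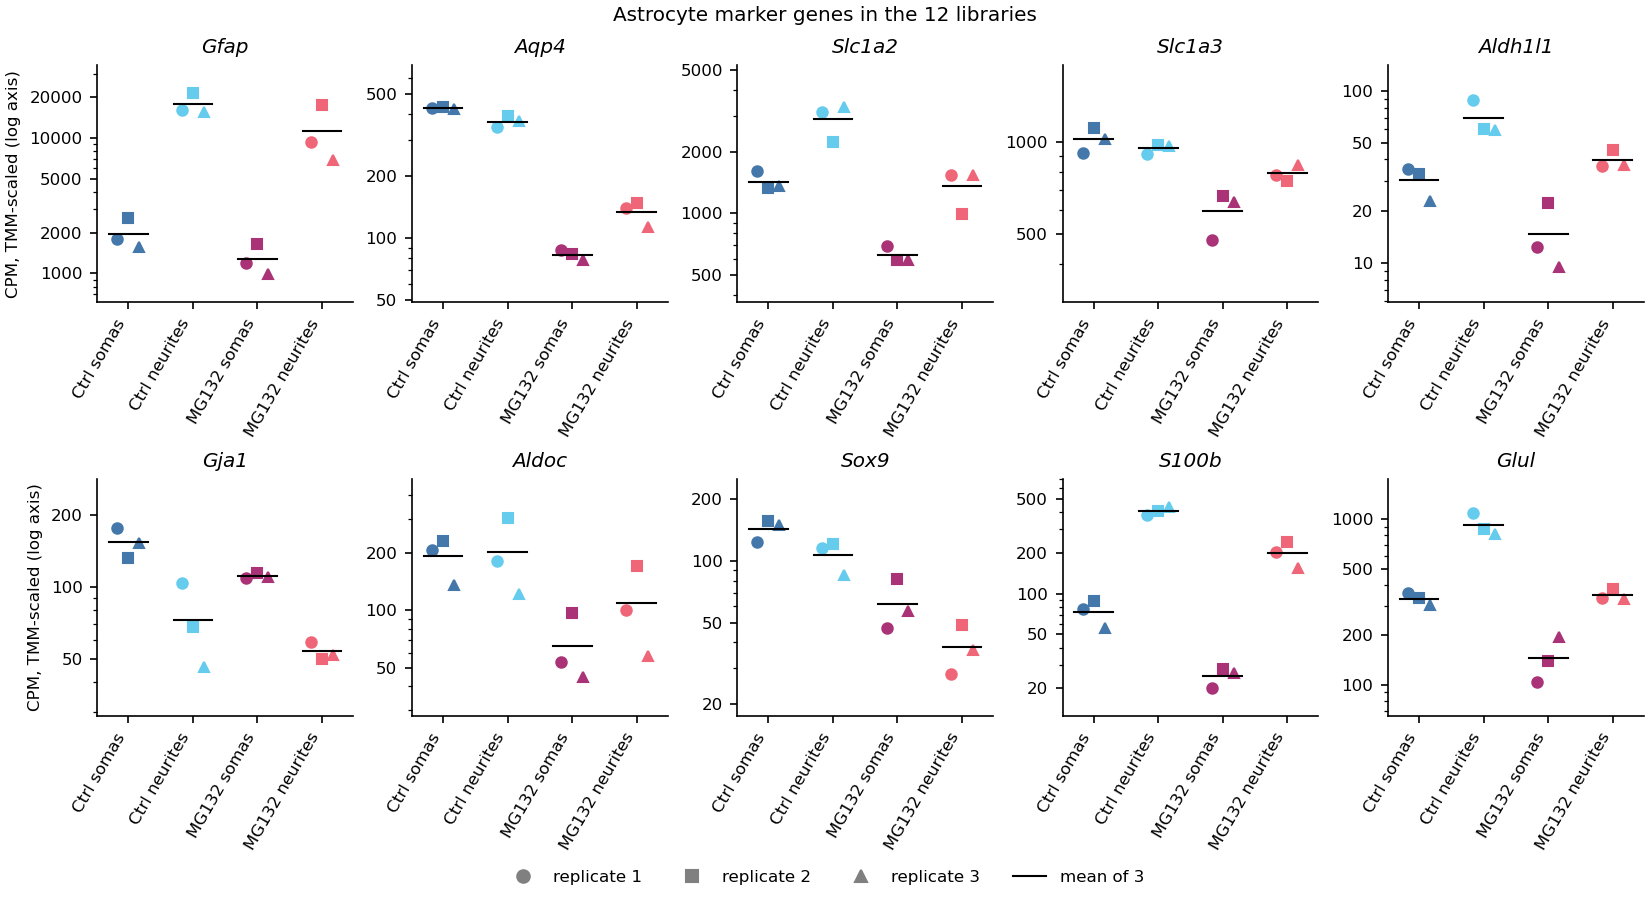
CPM scaled with TMM factors (log axis) of each astrocyte marker gene in the 12 libraries. Points are libraries, shaped by replicate number, and black lines are means of 3. Gfap and S100b sit higher in neurites than in somas under both treatments, Gja1 sits lower, and Aqp4 falls under MG132 in both fractions.

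The first question was in which fraction each mRNA was higher. In Ctrl cultures 4 of the 10 genes, Gfap, S100b, Glul and Slc1a2, were higher in neurites than in somas and 1, Gja1, was lower, at an adjusted p under 0.01. Over all 14185 tested genes, 6.3% were called higher in Ctrl neurites and 1.3% lower. In MG132 cultures 6 were higher, the same 4 with Aqp4 and Aldh1l1, and Gja1 was again lower, against 7.2% and 2.16% of all tested genes. The median log2 fold change of the 10 was 0.54 in Ctrl and 0.94 in MG132 neurons, beside -0.04 and -0.08 over all tested genes. With total counts in place of TMM factors, the counts became 2 higher and 1 lower in Ctrl, and 2 higher and 2 lower in MG132 neurons. Of all 14185 tested genes, total counts called 179 higher and 938 lower in Ctrl, and 138 higher and 2118 lower in MG132 neurons. Relative to the shifted median of all genes, the total-count log2 differences in Ctrl and MG132 neurons were 1.47 and 1.34 for Glul, 1.01 and 1.11 for Slc1a2, 1.16 and 1.58 for Aldh1l1 and -0.17 and 0.79 for Aqp4. This step largely restores the TMM values by construction, so it is no separate check of them.

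Gfap encodes the main intermediate filament protein of astrocytes, and lies on chromosome 11 from 102887336 to 102897200 (mouse build GRCm38, Entrez 14580). It measured 1786, 2553 and 1562 CPM in Ctrl somas and 16176, 21600.1 and 15606 CPM in Ctrl neurites. MG132 somas held 1197, 1649 and 986 CPM, and MG132 neurites held 9426, 17484 and 6893 CPM. Every neurite library was above every soma library. The log2 fold change of neurites over somas was 3.18 ± 0.36 (SE), adjusted p = 2.28e-05 in Ctrl, and 3.14 ± 0.36 (SE), adjusted p = 3.04e-05 in MG132 neurons. These are ratios of 9.05 and 8.82. On total counts the log2 differences were 2.52 (adjusted p = 4.47e-04) and 2.50 (adjusted p = 2.62e-04).

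S100b, on chromosome 10 from 76253836 to 76261319 (Entrez 20203), encodes a small calcium-binding protein that astrocytes also secrete. Its levels were 76.9, 88.7 and 55.8 CPM in Ctrl somas and 382, 411 and 439 CPM in Ctrl neurites. After MG132 they were 20.1, 27.6 and 26.1 CPM in somas and 203, 241.6 and 154 CPM in neurites. As for Gfap, the fractions did not overlap under either treatment. The log2 fold change of neurites over somas was 2.48 ± 0.22 (SE), adjusted p = 3.54e-06 in Ctrl and 3.03 ± 0.23 (SE), adjusted p = 1.83e-06 in MG132 neurons. On total counts these were 1.80 (adjusted p = 0.00101) and 2.30 (adjusted p = 9.78e-05).

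Glul encodes glutamine synthetase, which turns the glutamate taken up by astrocytes into glutamine, and lies on chromosome 1 from 153899929 to 153909723 (Entrez 14645). Ctrl somas held 358, 334 and 303 CPM and Ctrl neurites 1089, 873 and 808 CPM. In MG132 cultures somas held 104, 139 and 196 CPM and neurites 334, 379 and 331 CPM. Neurites were above somas in every library, by 1.48 ± 0.21 (SE), adjusted p = 2.18e-04 on the log2 scale in Ctrl and by 1.25 ± 0.21 (SE), adjusted p = 9.19e-04 after MG132. Scaled to total counts, the same differences were 0.77 (adjusted p = 0.085) and 0.48 (adjusted p = 0.249), past no threshold. Stretches of 75 bases that 4 more genes, the pseudogene Glns-ps1 among them, share with its transcript made up 7.91% of it, so a share of its reads could have been placed elsewhere.

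The glutamate transporters Slc1a2 (GLT-1) and Slc1a3 (GLAST) clear glutamate from the space around synapses. Slc1a2, on chromosome 2 from 102658239 to 102790784 (Entrez 20511), measured 1611, 1324 and 1356 CPM in Ctrl somas and 3108, 2235 and 3301 CPM in Ctrl neurites. After MG132 it measured 694, 593 and 592 CPM in somas and 1534, 997 and 1543 CPM in neurites. Neurites held about the same multiple of the soma level under both treatments, with log2 fold changes of 1.01 ± 0.22 (SE), adjusted p = 0.00506 in Ctrl and 1.12 ± 0.22 (SE), adjusted p = 0.00235 in MG132 neurons. The Ctrl call was lost in 5 of the 6 fits that left out 1 Ctrl library, all but Ctrl neurites replicate 2, with log2 fold changes of 0.83 to 1.17 over the 6 and adjusted p up to 0.0481. The MG132 call was lost without MG132 somas replicate 2 and without MG132 neurites replicate 1 or 3, at adjusted p up to 0.0127. On total counts the differences were 0.31 (adjusted p = 0.474) and 0.25 (adjusted p = 0.535).

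Slc1a3, on chromosome 15 from 8634124 to 8710807 (Entrez 20512), was at like levels in both fractions of Ctrl cultures when scaled with TMM factors. Somas held 925, 1117 and 1026 CPM and neurites 915, 983 and 974 CPM, with overlapping libraries. After MG132 the somas held 481, 668 and 636 CPM and the neurites 784, 748 and 845 CPM, without overlap. Neither difference passed the test, with a log2 fold change of -0.09 ± 0.17 (SE), adjusted p = 0.783 in Ctrl and 0.41 ± 0.17 (SE), adjusted p = 0.112 in MG132 neurons. On total counts the values were -0.75 (adjusted p = 0.0775) in Ctrl and -0.39 (adjusted p = 0.33) in MG132 neurons, so the like levels in Ctrl depend on the scaling.

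Gja1 encodes connexin 43, the main gap junction protein of astrocytes, and lies on chromosome 10 from 56377300 to 56390419 (Entrez 14609). It was the gene of the 10 that was lower in neurites. Ctrl somas held 176, 132 and 152 CPM against 104, 68.0 and 46.1 CPM in Ctrl neurites, and MG132 somas held 109, 114 and 109.9 CPM against 58.9, 49.9 and 51.8 CPM in MG132 neurites. The fractions did not overlap under either treatment. The log2 fold change was -1.08 ± 0.23 (SE), adjusted p = 0.00512 in Ctrl and -1.05 ± 0.23 (SE), adjusted p = 0.0058 in MG132 neurons. On total counts it was -1.81 (adjusted p = 4.33e-04) and -1.85 (adjusted p = 2.00e-04). The calls lay near the threshold. The Ctrl call was lost without Ctrl somas replicate 1 or 3 and without Ctrl neurites replicate 2 or 3, at adjusted p of 0.013 to 0.0219. Without any 1 of the 6 MG132 libraries, the MG132 call was lost at adjusted p of 0.0135 to 0.0337, with log2 fold changes of -1.12 to -0.98.

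Aqp4 encodes the water channel of astrocyte endfeet and lies on chromosome 18 from 15389394 to 15410982 (Entrez 11829). Ctrl somas held 429, 433 and 424 CPM and Ctrl neurites 346, 391 and 369.6 CPM. MG132 somas held 87.4, 84.5 and 78.7 CPM and MG132 neurites 141, 149 and 114 CPM. Somas were thus above neurites in all Ctrl libraries and below them in all MG132 libraries. In Ctrl the log2 fold change of neurites over somas did not pass the test, at -0.22 ± 0.15 (SE), adjusted p = 0.396, while in MG132 neurons it was 0.69 ± 0.15 (SE), adjusted p = 0.00572. The MG132 call was lost in 5 of 6 fits without 1 library, all but MG132 neurites replicate 3, at adjusted p up to 0.0338. On total counts the values were -0.88 (adjusted p = 0.0484) and -0.07 (adjusted p = 0.875). Relative to the median of all genes, Aqp4 in MG132 neurons lay at 0.79 on total counts and 0.77 with TMM factors. Subtracting the median largely brings about this likeness by construction, so it is no separate check of the call.

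Aldh1l1 encodes a folate enzyme widely used to mark astrocytes and lies on chromosome 6 from 90550768 to 90599171 (Entrez 107747). Its levels were 35.1, 32.9 and 23.1 CPM in Ctrl somas and 88.1, 60.3 and 59.2 CPM in Ctrl neurites. MG132 somas held 12.4, 22.4 and 9.51 CPM and MG132 neurites 36.7, 45.1 and 37.3 CPM. No soma library reached a neurite library of the same treatment. The log2 fold change was 1.18 ± 0.29 (SE), adjusted p = 0.0116 in Ctrl, short of the threshold, and 1.47 ± 0.30 (SE), adjusted p = 0.00311 in MG132 neurons. The Ctrl difference was called by DESeq2 (adjusted p = 0.00324), without a filter on low counts (0.00269) and with the replicate number as a block (2.85e-04). It was not called on total counts (0.46, adjusted p = 0.363) or in any fit without 1 library (adjusted p of 0.0169 to 0.0791). The MG132 call was lost without MG132 somas replicate 1 or 3 or MG132 neurites replicate 2, at adjusted p up to 0.0156, and on total counts the value was 0.72 (adjusted p = 0.129). Other genes, the antisense gene Gm15756 among them, overlap 13.4% of its exon bases. The strand setting of the counting is not stated beyond default parameters, so reads of these genes cannot be told apart from those of Aldh1l1.

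Aldoc and Sox9 passed the main test of localization under neither treatment. With the replicate number as a block, an alternative given further below, both were called in MG132 neurons. On that fit Aldoc was higher in neurites at 0.70 (adjusted p = 0.00177) and Sox9 lower at -0.69 (adjusted p = 0.00382). Aldoc, on chromosome 11 from 78323073 to 78327781 (Entrez 11676), encodes the aldolase isoform of astrocyte glycolysis. It measured 207, 230.3 and 135 CPM in Ctrl somas and 181, 302.2 and 121 CPM in Ctrl neurites, with the neurite libraries lying on both sides of the soma libraries. Its log2 fold change of neurites over somas was 0.08 ± 0.39 (SE), adjusted p = 0.929, and 0.77 ± 0.40 (SE), adjusted p = 0.206 in MG132 neurons. Sox9, on chromosome 11 from 112782210 to 112787757 (Entrez 20682), encodes a transcription factor of astrocyte nuclei. It measured 124, 157 and 151 CPM in Ctrl somas and 115, 121 and 85.8 CPM in Ctrl neurites. Ctrl neurites lay below Ctrl somas without overlap, at -0.42 ± 0.24 (SE), adjusted p = 0.271, and MG132 neurites overlapped MG132 somas, at -0.69 ± 0.24 (SE), adjusted p = 0.0598. On total counts the Sox9 values were -1.09 (adjusted p = 0.0235) in Ctrl and -1.41 (adjusted p = 0.00346) in MG132 neurons, the second of these past the threshold.

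**Figure D2:**
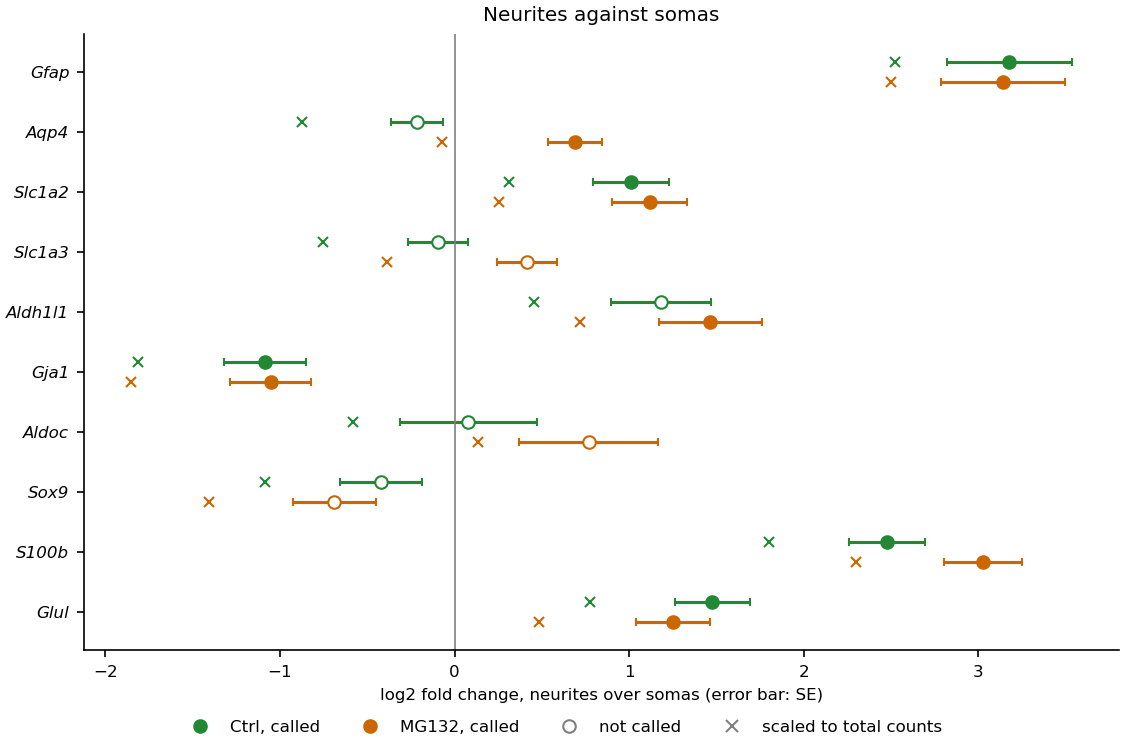
Log2 fold change of neurites over somas for each gene in Ctrl (green) and MG132 (orange) neurons, with its SE. Filled circles passed an adjusted p under 0.01, open circles did not, and crosses are values scaled to total counts. Gfap and S100b lie farthest to the right and Gja1 farthest to the left under both scalings.

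Ratios of 2 genes within a library do not depend on the scaling. Against Slc1a3, Gfap was counted 1.93, 2.29 and 1.52 times in Ctrl somas and 17.7, 22.0 and 16.02 times in Ctrl neurites. After MG132 the ratio was 2.49, 2.47 and 1.55 in somas and 12.03, 23.4 and 8.16 in neurites. The Gfap to Slc1a3 ratio was therefore higher in every neurite library than in any soma library. For S100b the ratio to Slc1a3 was 0.0831, 0.0795 and 0.0544 in Ctrl somas and 0.417, 0.418 and 0.451 in Ctrl neurites. MG132 somas gave 0.0417, 0.0412 and 0.041 and MG132 neurites 0.259, 0.323 and 0.182, again without overlap between the fractions.

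The Gja1 to Slc1a3 ratio went the other way. It was 0.191, 0.118 and 0.148 in Ctrl somas and 0.113, 0.0691 and 0.0473 in Ctrl neurites. After MG132 it was 0.226, 0.171 and 0.173 in somas and 0.0751, 0.0667 and 0.0613 in neurites. The mRNAs of these marker genes thus did not share 1 ratio across the fractions, and which cells they came from was not tested. Counted against each other, Gfap exceeded Gja1 by 10.1, 19.4 and 10.3 times in Ctrl somas and by 156, 318 and 339 times in Ctrl neurites. The Aqp4 to Slc1a3 ratio, 0.464, 0.388 and 0.413 in Ctrl somas and 0.378, 0.397 and 0.379 in Ctrl neurites, overlapped between the fractions. With 3 libraries against 3, an exact permutation test of a single ratio cannot go below a two-sided p of 0.10, so no p is given.

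**Figure D3:**
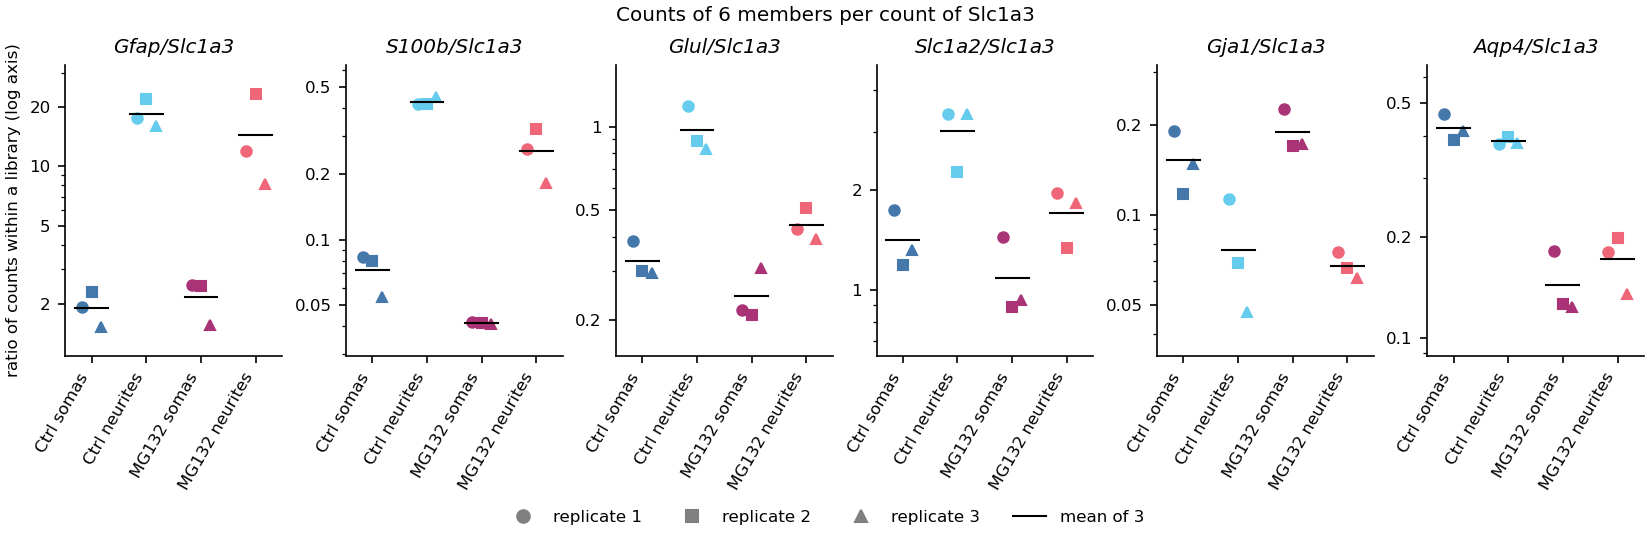
Counts of 6 astrocyte marker genes divided by the count of Slc1a3 in the same library (log axis), by group. Points are libraries and black lines are means of 3. The Gfap and S100b ratios are higher in all neurite libraries, the Gja1 ratio is lower, and the Aqp4 ratio falls in both MG132 groups.

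The second question was how these mRNAs responded to MG132. In somas, 7 of the 10 genes fell (Aqp4, S100b, Aldoc, Sox9, Slc1a2, Glul and Slc1a3) and none rose. Of all tested genes, 5.72% were called lower in MG132 somas and 9.52% higher. In neurites, 5 fell (Sox9, Aqp4, Glul, Slc1a2 and S100b) and none rose, against 5.67% lower and 9.76% higher over all tested genes. The log2 fold changes of all 10 were below 0 in both fractions. Their median was -1.19 in somas and -0.96 in neurites, beside -0.07 and -0.16 over all tested genes. The same 5 genes that fell in neurites fell in somas. On total counts 3 genes fell in somas, Aqp4, S100b and Slc1a2, and 4 in neurites, Sox9, Aqp4, Glul and Slc1a2, and the median of all genes was -0.10 in somas and -0.30 in neurites. Among all 14185 tested genes, that scaling called 418 lower in somas and 538 lower in neurites.

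Aqp4 fell the most in somas, by 5.13 times. MG132 changed Aqp4 on the log2 scale by -2.36 ± 0.16 (SE), adjusted p = 3.45e-07 in somas and by -1.45 ± 0.15 (SE), adjusted p = 1.32e-05 in neurites, and the 3 MG132 libraries of each fraction, given above, lay far below the 3 Ctrl libraries. The Aqp4 call held in each fit that left out 1 library, at log2 fold changes of -2.40 to -2.31 in somas and -1.54 to -1.22 in neurites. Within a library, Aqp4 was counted 0.182, 0.126 and 0.124 times per count of Slc1a3 in MG132 somas and 0.18, 0.199 and 0.135 times in MG132 neurites, below all Ctrl libraries.

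The members that handle glutamate and glutamine, Glul, Slc1a2 and Slc1a3, fell in both fractions except for Slc1a3 in neurites. Glul changed by -1.18 ± 0.21 (SE), adjusted p = 9.96e-04 on the log2 scale in somas and by -1.41 ± 0.21 (SE), adjusted p = 2.41e-04 in neurites. For Slc1a2 the values were -1.19 ± 0.22 (SE), adjusted p = 0.00104 in somas and -1.09 ± 0.22 (SE), adjusted p = 0.00183 in neurites. The Slc1a2 call in neurites was lost without Ctrl neurites replicate 3 (adjusted p = 0.018) and without MG132 neurites replicate 3 (adjusted p = 0.0106). Slc1a3 fell in somas, at -0.78 ± 0.17 (SE), adjusted p = 0.0037, while in neurites its log2 fold change was -0.27 ± 0.17 (SE), adjusted p = 0.256. Its soma call was lost without MG132 somas replicate 1 or 3 or Ctrl somas replicate 2 or 3, at adjusted p of 0.0101 to 0.021.

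S100b fell in both fractions, at -1.59 ± 0.22 (SE), adjusted p = 1.15e-04 in somas and -1.04 ± 0.21 (SE), adjusted p = 0.00191 in neurites. In neurites the S100b call was lost without Ctrl neurites replicate 3 (adjusted p = 0.0121) or MG132 neurites replicate 3 (adjusted p = 0.0218). Sox9, at 46.9, 81.3 and 57.3 CPM in MG132 somas and 28.1, 48.8 and 36.8 CPM in MG132 neurites, fell without overlap with the Ctrl libraries. Its log2 fold changes were -1.22 ± 0.24 (SE), adjusted p = 0.00165 in somas and -1.49 ± 0.24 (SE), adjusted p = 3.87e-04 in neurites, and the soma call was lost without MG132 somas replicate 1 (adjusted p = 0.0111) or 3 (adjusted p = 0.0101). Aldoc, at 53.5, 97.0 and 45.0 CPM in MG132 somas and 101, 170.4 and 57.9 CPM in MG132 neurites, passed the threshold narrowly in somas, at -1.56 ± 0.40 (SE), adjusted p = 0.00996. That call was lost in each fit without 1 library but MG132 somas replicate 2, at adjusted p up to 0.0489. The neurite libraries of Aldoc overlapped between treatments, at -0.87 ± 0.40 (SE), adjusted p = 0.118.

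Gfap, Gja1 and Aldh1l1 did not pass the threshold in either fraction of this fit, which does not show that they were unchanged. With the replicate number as a block, an alternative given further below, Gfap and Aldh1l1 were called lower in both fractions. Gfap gave -0.62 ± 0.33 (SE), adjusted p = 0.178 in somas and -0.66 ± 0.33 (SE), adjusted p = 0.154 in neurites, with overlapping libraries in both. Its 3 MG132 neurite libraries had a coefficient of variation of 49.1%, beside 18.6% in Ctrl neurites. The Gja1 log2 fold change was -0.47 ± 0.23 (SE), adjusted p = 0.146 in somas, where the treatments did not overlap, and -0.44 ± 0.23 (SE), adjusted p = 0.184 in neurites, where they did. For Aldh1l1 it was -1.08 ± 0.29 (SE), adjusted p = 0.0137 in somas and -0.79 ± 0.29 (SE), adjusted p = 0.0525 in neurites, without overlap in either. Leaving out MG132 somas replicate 2 brought the Aldh1l1 change in somas past the threshold (adjusted p = 0.0018). That change was also called by DESeq2 (adjusted p = 0.00317), without a filter on low counts (0.00318) and with at least 10 counts in every library (0.00867). On total counts it was not called (adjusted p = 0.0371).

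**Figure D4:**
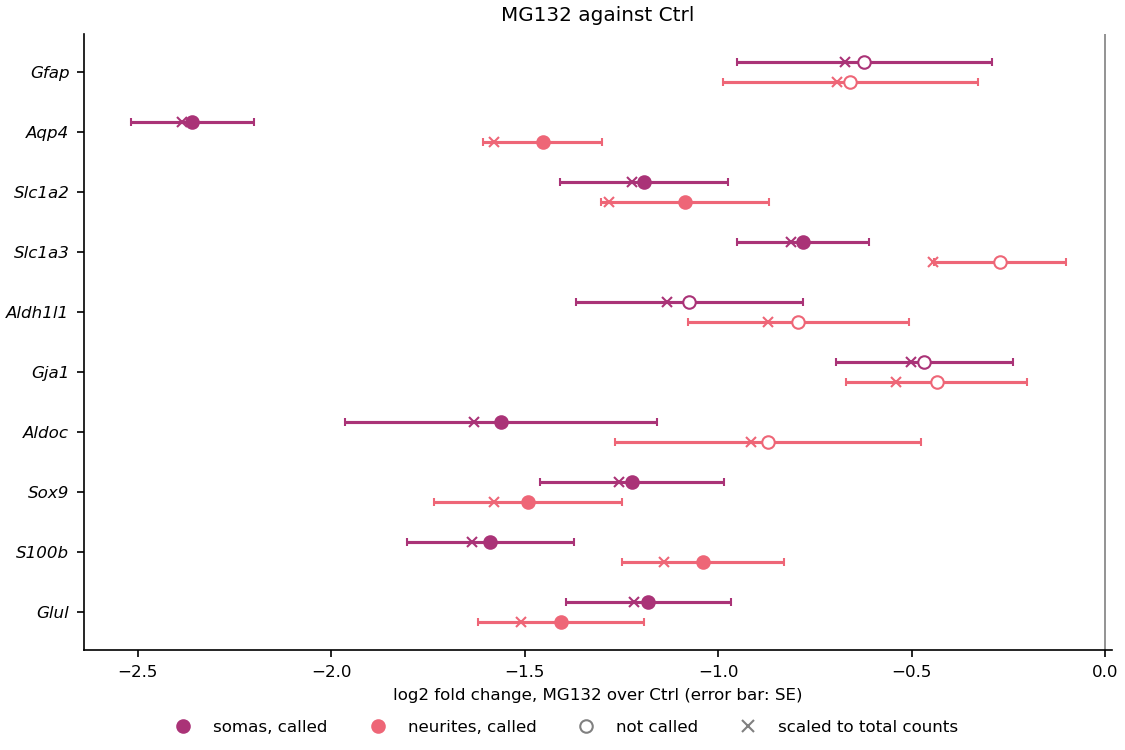
Log2 fold change of MG132 over Ctrl for each gene in somas (purple) and neurites (pink), with its SE. Filled circles passed an adjusted p under 0.01, open circles did not, and crosses are values scaled to total counts. All 10 genes lie left of 0 in both fractions, with Aqp4 in somas farthest left.

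The difference of the MG132 response between neurites and somas was tested directly. No member was called, and 0% of all tested genes were, while 1000 of the 14185 genes had an unadjusted p under 0.05 in edgeR. DESeq2 called 20 genes higher and 6 lower. Aqp4 had the largest difference of the 10, at 0.91 ± 0.21 (SE), adjusted p = 0.328, with an unadjusted p of 0.000744. It was called by DESeq2, at a log2 difference of 0.94 (adjusted p = 0.00382). For the other 9 genes the differences lay between -0.27 for Sox9 and 0.69 for Aldoc, with SEs of 0.24 for Slc1a3 to 0.56 for Aldoc.

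The promoters were read for motifs of stress and cytokine responses and for the common CCAAT box. RefSeq gives a window from 250 bases before to 50 bases after the annotated start for 8 members, of which Aldoc has 2. Over 32851 windows of all genes, 7.86% held the heat shock element core GAANNTTC, 12.4% the antioxidant element core TGACNNNGC, 8.30% the STAT site TTCNNNGAA and 37.4% the CCAAT box, on either strand. Among the 9 member windows, 1 held the heat shock core, 0 the antioxidant core, 3 the STAT site and 4 the CCAAT box. In all, 4 motifs were searched, and a match is only a run of letters in this window. The windows of Gfap (chr11:102897151-102897450, minus strand), which did not pass the MG132 test, and of S100b (chr10:76253586-76253885), Glul (chr1:153899679-153899978) and Slc1a3 (chr15:8710758-8711057, minus strand), which fell in somas, are shown 5′ to 3′ on GRCm38.p6. Capitals mark motif matches.
Gfap: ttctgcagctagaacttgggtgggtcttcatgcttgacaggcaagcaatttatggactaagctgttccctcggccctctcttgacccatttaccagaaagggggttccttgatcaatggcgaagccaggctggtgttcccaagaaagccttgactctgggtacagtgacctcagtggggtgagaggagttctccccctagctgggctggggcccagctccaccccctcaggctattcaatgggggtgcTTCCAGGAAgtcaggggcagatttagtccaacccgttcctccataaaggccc
S100b: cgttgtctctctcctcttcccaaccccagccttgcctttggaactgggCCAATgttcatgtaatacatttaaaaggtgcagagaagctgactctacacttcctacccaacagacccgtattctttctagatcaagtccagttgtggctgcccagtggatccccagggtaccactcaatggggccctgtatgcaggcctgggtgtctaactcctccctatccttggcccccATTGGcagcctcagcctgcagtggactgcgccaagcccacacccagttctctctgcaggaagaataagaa
Glul: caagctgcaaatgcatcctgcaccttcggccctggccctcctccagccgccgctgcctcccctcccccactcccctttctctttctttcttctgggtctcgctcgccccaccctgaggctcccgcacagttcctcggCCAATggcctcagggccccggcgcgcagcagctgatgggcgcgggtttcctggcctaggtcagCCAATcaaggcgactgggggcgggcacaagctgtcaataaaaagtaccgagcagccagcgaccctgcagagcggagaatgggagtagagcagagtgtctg
Slc1a3: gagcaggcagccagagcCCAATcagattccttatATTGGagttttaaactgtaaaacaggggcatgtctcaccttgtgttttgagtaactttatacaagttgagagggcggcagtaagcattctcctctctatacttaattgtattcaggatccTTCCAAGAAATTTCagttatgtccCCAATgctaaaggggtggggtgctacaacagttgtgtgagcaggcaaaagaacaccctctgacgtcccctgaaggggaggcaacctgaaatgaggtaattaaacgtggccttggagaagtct

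In the Gfap window the capitals are a STAT site that starts at position -2, counted from the annotated start. S100b has CCAAT boxes at -202 and -20 and Glul at -113 and -50, where ATTGG is the box on the other strand. Slc1a3 has CCAAT boxes at -233, -216 and -72, and in it a STAT site at -96 overlaps a heat shock core at -90. Slc1a3, with the sole heat shock core among these windows, fell in somas and did not pass the test in neurites.

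The 93 other astrocyte genes were read in 8 lists by role. Of the 90 tested, 31 fell and 11 rose in MG132 somas, and 17 fell and 10 rose in MG132 neurites. Over all tested genes 5.72% fell and 9.52% rose in somas, and 5.67% fell and 9.76% rose in neurites, so the 11 and 10 that rose are shares near those of all genes. The same shares are the background for each list and cell type that follows. The median of these 90 was -0.78 in somas and -0.41 in neurites on the log2 scale, beside -0.07 and -0.16 over all tested genes. In Ctrl neurites 9 were higher than in somas and none lower, and in MG132 neurites 17 were higher and 1 lower, beside 6.3% and 1.3% of all genes in Ctrl and 7.2% and 2.16% in MG132 neurons. Total counts turned this to 4 higher and 11 lower in Ctrl, and 6 higher and 13 lower in MG132 neurons. On that scaling 179 of all 14185 tested genes were higher and 938 lower in Ctrl neurites, and 138 higher and 2118 lower in MG132 neurites.

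Among proteins of ions, water and junctions, 6 of 10 fell and 1 rose in MG132 somas, and 3 fell and 1 rose in neurites. Kcnj10, the inward rectifier potassium channel of astrocytes, went from a mean of 617 to 88.1 CPM in somas (-2.81 on the log2 scale, adjusted p = 1.07e-04). In neurites it went from 2476 to 456 CPM (-2.44, adjusted p = 2.28e-04). Like Gfap, Kcnj10 was higher in neurites, by 4.01 times in Ctrl and 5.21 times in MG132 neurons, though its Ctrl log2 value on total counts was 1.29 (adjusted p = 0.0264). Hepacam, which encodes an adhesion protein of astrocyte junctions, fell by 4.05 times in somas and 2.33 times in neurites, the latter not called on total counts (adjusted p = 0.0112). Atp13a4, a P-type ATPase gene, rose from means of 3.99 to 19.1 CPM in somas and from 3.01 to 16.5 CPM in neurites.

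Of 10 tested metabolic genes, 7 fell in somas and 4 in neurites, and none rose. Gpam, an enzyme of glycerolipid synthesis, changed on the log2 scale by -2.86 in somas (adjusted p = 7.93e-06) and -2.83 in neurites (adjusted p = 8.00e-06). Pygb, a glycogen phosphorylase, changed on that scale by -2.10 in somas and -1.45 in neurites. In this list 3 genes stood higher in Ctrl neurites. Ndrg2 measured a mean of 199 CPM in Ctrl somas and 1759.6 CPM in Ctrl neurites, a log2 fold change of 3.15 ± 0.20 (SE), adjusted p = 3.30e-07. Aldh1a1, a retinal dehydrogenase, was higher by 3.06 on the log2 scale and Mt3, the brain metallothionein, by 1.15, of which Mt3 was not called on total counts (0.45, adjusted p = 0.334).

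Of 12 transcription factors 5 fell in each fraction, as Sox9 did, and none rose. Id4, an inhibitor of bHLH factors, changed on the log2 scale by -3.31 in somas and -2.90 in neurites. Nfia, which directs astrocyte formation, changed by -1.88 in somas (adjusted p = 2.01e-06) and -1.54 in neurites (adjusted p = 8.00e-06). Among receptors and surface proteins 7 of 14 fell and 1 rose in somas, and 4 fell and 1 rose in neurites. Fgfr3, a growth factor receptor, changed by -1.99 in somas and -1.41 in neurites (not called on total counts, adjusted p = 0.0142), and Cldn10, a claudin, by -2.78 in somas. Cd44, the hyaluronan receptor, was the gene of this list that rose, by 3.83 times in neurites.

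Of 16 genes linked to reactive astrocytes, 5 rose in each fraction, none fell and 11 were not called. In somas 8 of the 16 had log2 fold changes above 0 and 8 below, with a median of 0.09. In neurites 10 lay above 0 and 6 below, with a median of 0.42. The genes named next are among those that rose. Cxcl10, a chemokine, rose from a mean of 4.38 to 201 CPM in somas and from 2.83 to 189 CPM in neurites. Hspb1, a small heat shock protein that cells of many types induce, rose by 38.7 times in somas and 24 times in neurites. Ptx3 and Osmr, a pentraxin and a cytokine receptor, rose by 24.9 and 3.03 times in somas. Gfap, a gene often counted with these, did not pass the main test, at log2 fold changes of -0.62 in somas and -0.66 in neurites. With the replicate number as a block Gfap was called lower in both fractions.

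In the list of glutamate and glutamine handling, with 9 genes tested, 1 gene rose in each fraction. In somas 1 fell and 7 were not called, and in neurites 0 fell and 8 were not called. Slc7a11, the cystine and glutamate exchanger, went from 14.6 to 926 CPM in somas (5.99 ± 0.22 (SE), adjusted p = 6.73e-10) and from 16.4 to 938 CPM in neurites. It thus moved against Slc1a2 and Glul. Slc6a11, a GABA transporter, fell in somas at -1.37 (adjusted p = 0.00993), though not on total counts (adjusted p = 0.0189). Of the intermediate filament and precursor genes, Tnc and Slc1a4 rose and Synm fell in both fractions, Hopx fell in somas, and Nes, the filament protein of neural precursors, was higher in Ctrl neurites by 10.5 times. On total counts the Slc1a4 call in neurites (adjusted p = 0.0159) and the Synm call in somas (adjusted p = 0.0345) were lost. Of the 12 secreted proteins, Thbs1 rose and Chrdl1, Htra1 and Gpc4 fell in somas, none was called in neurites, and Sparc was higher in Ctrl neurites by 7.49 times. On total counts Htra1 (adjusted p = 0.0151) and Gpc4 (adjusted p = 0.0219) were not called.

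Markers of other cell types moved with the treatment as well. Of 14 neuron markers, none was called in somas and 1, Stmn2, fell in neurites (-1.01 on the log2 scale), though not on total counts (adjusted p = 0.017), and the medians of the list were -0.20 and -0.18. The summed level of the neuron list was 1805 to 2793 CPM in Ctrl somas, 1331 to 2498 in MG132 somas, 2021 to 4279 in Ctrl neurites and 1495 to 3337 in MG132 neurites. For the 9 microglia markers, 4 fell in somas and 5 in neurites, with Cx3cr1 at -5.77 and -5.88, and their sum was 620.5 to 795 CPM in Ctrl somas, 180.0 to 320.2 in MG132 somas, 615 to 1215 in Ctrl neurites and 102 to 248 in MG132 neurites. For the 10 oligodendrocyte lineage markers, 3 fell in somas and 4 in neurites, among them Pdgfra at -3.67 and -3.48, and their sum was 1637 to 6764 CPM in Ctrl somas, 559 to 6170.2 in MG132 somas, 5231 to 22379.7 in Ctrl neurites and 2951 to 16148 in MG132 neurites.

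Of 8 fibroblast and mural markers, 4 fell in somas and 1 in neurites, and they summed to 205 to 283 CPM in Ctrl somas, 62.7 to 95.0 in MG132 somas, 57.8 to 135 in Ctrl neurites and 31.4 to 54.2 in MG132 neurites. Of 4 ependymal markers 2 fell in each fraction, and they summed to 145 to 192 CPM in Ctrl somas, 68.9 to 78.9 in MG132 somas, 59.9 to 109.5 in Ctrl neurites and 20.1 to 25.8 in MG132 neurites. The 6 endothelial markers summed to 9.05 to 11.9 CPM in Ctrl somas, 6.11 to 18.2 in MG132 somas, 0.794 to 12.9 in Ctrl neurites and 6.16 to 8.70 in MG132 neurites, and Cldn5, one of their defining genes, was at 0 in every group but Ctrl somas. The 4 markers of dividing cells were not called, and summed to 40.3 to 150.4 CPM in Ctrl somas, 11.5 to 60.9 in MG132 somas, 43.7 to 249.8 in Ctrl neurites and 16.7 to 126 in MG132 neurites. The summed level of the 10 astrocyte genes, of which Gfap was the largest part, was 5187 to 6401 CPM in Ctrl somas, 2735 to 3475 in MG132 somas, 21810.0 to 27045 in Ctrl neurites and 10064 to 20312 in MG132 neurites. The part of other cell types in the changes of the 10 genes was not tested.

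**Figure D5:**
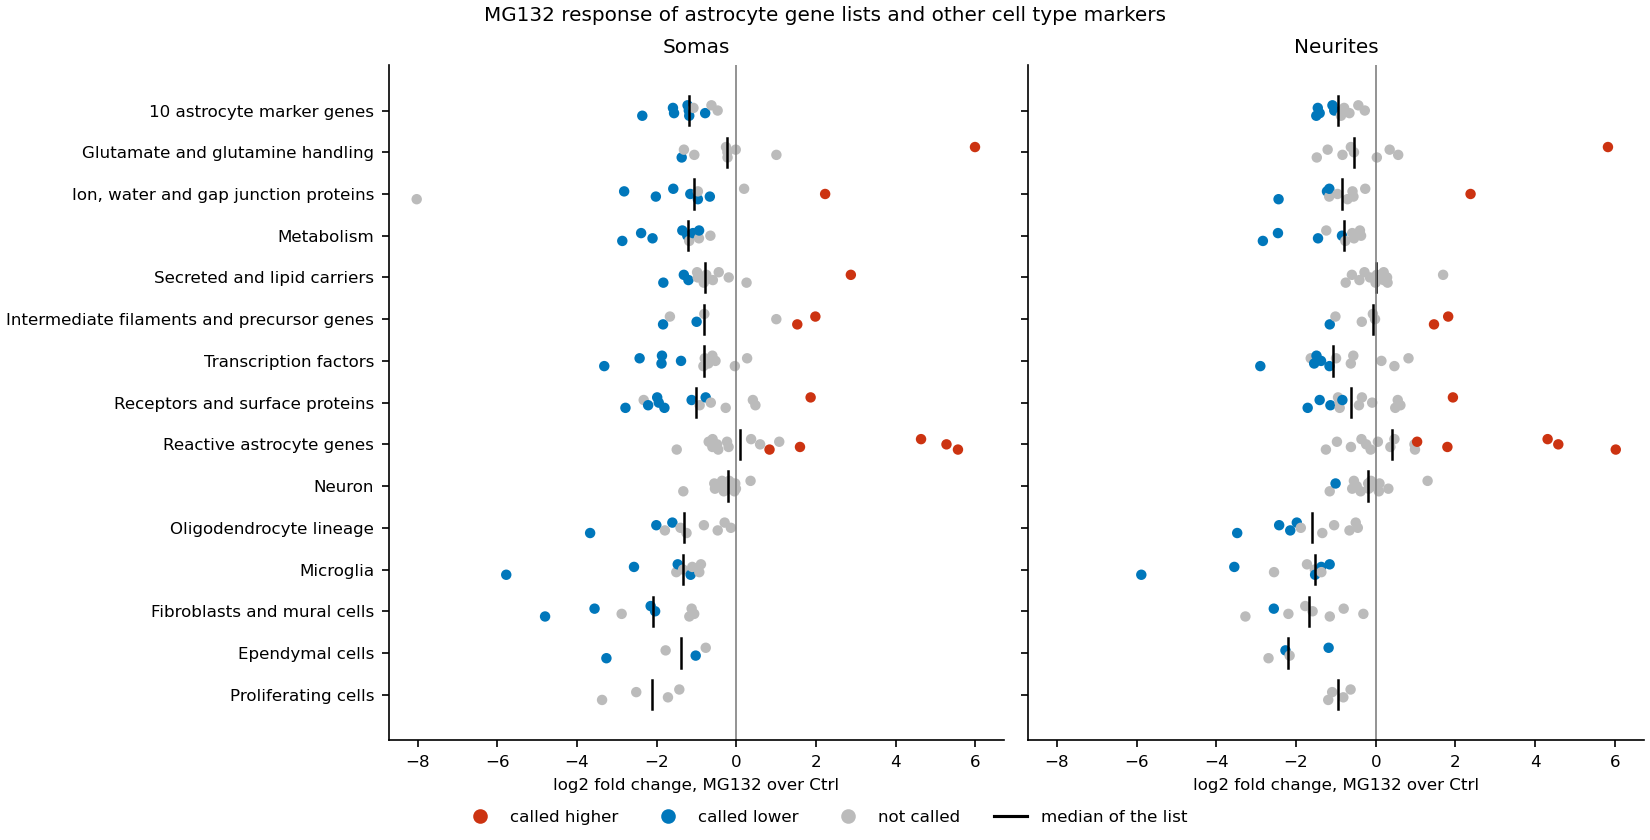
Log2 fold change of MG132 over Ctrl for the 10 astrocyte marker genes, the 8 lists of other astrocyte genes and markers of 6 other cell types, in somas and neurites. Each point is a tested gene, colored by its call at an adjusted p under 0.01, and black lines are medians of lists. The neuron list lies near 0, while the 10 genes have medians of -1.19 in somas and -0.96 in neurites. The other cell type lists shown lie about as low or lower. The endothelial list, with 2 genes tested and none called, is not shown and had medians of 0.51 in somas and 1.33 in neurites. Medians in somas and neurites are -1.32 and -1.61 for oligodendrocyte lineage and -1.33 and -1.53 for microglia. They are -2.09 and -1.68 for fibroblasts and mural cells, -1.40 and -2.21 for ependymal cells and -2.11 and -0.95 for dividing cells.

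For each of the 10 genes, the genes with the most similar pattern were taken from the 13620 tested genes that averaged 1 CPM or more, by the correlation of log2 CPM over the 12 libraries. This is a description, since the libraries share cultures, treatments and scaling. Gfap was closest to Aldh1a1 (0.990), Ntm (0.987) and E030003E18Rik (0.987). S100b was closest to Scp2 (0.992), Pbxip1 (0.990) and Rflnb (0.987). These neighbours of Gfap and S100b include Aldh1a1 of the metabolic list, and none of the 10 genes was among the 3 nearest of another. Correlations between members ran from -0.759 for Gfap with Gja1 to 0.957 for Gfap with S100b.

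Aqp4 was closest to 2610507I01Rik (0.979), Mmd2 (0.975) and Ccdc190 (0.972), and Sox9 to Tmem260 (0.977), Gpam (0.970) and Sucnr1 (0.967). Glul was closest to Mtch1 (0.977), Tsn (0.977) and Chst2 (0.976), and Slc1a2 to Daam2 (0.972), Tmod2 (0.966) and Itih5 (0.966). Aldoc was closest to Tspan7 (0.978), Ptprz1 (0.965) and Ecm2 (0.964). The nearest genes to Slc1a3 were Tmed10 (0.960), Nxn (0.946) and Itm2b (0.944), and those to Gja1 were Kcnq5 (0.974), Atp1b1 (0.973) and Ak7 (0.965). For Aldh1l1 they were B930095G15Rik (0.984), P4ha3 (0.974) and Igfbp5 (0.965).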

How the data were processed

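RNA-Seq was done by the authors on 12 libraries made by polyA capture. Per the labels and the methods, reads were trimmed with Trimmomatic 0.38.0, aligned single-end to mm10 with STAR and counted per gene with featureCounts 2.0.1 at default parameters. The deposited values are raw counts, used as deposited, one library per file. How reads with several alignments and strand were handled is not given beyond default parameters. Symbols and coordinates came from RefSeq (GRCm38), exon lengths from GENCODE M21, and 93.0% of the listed genes had a symbol.

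The test was edgeR 4.0.16 in R 4.3.3 (filterByExpr, TMM, quasi-likelihood test, 1 model of 4 group means over 12 libraries). P-values were Benjamini-Hochberg adjusted over 14185 genes, and a call needed an adjusted p under 0.01, with no limit on the fold. DESeq2 1.42.0, other scalings, filters and thresholds, a block and left-out libraries were alternatives. The model was tested on simulated data. Over all tested genes, the MG132 response had a median SE of 0.357 (somas) and 0.365 (neurites), and totals per library limit the precision of low genes. Samples were grouped by their titles. From other lists, at most the 4 largest called genes per list and contrast with a mean of at least 1 CPM were named. The members and lists were chosen with earlier results of these data known.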

Additional observations from a re-analysis of the deposited data

How the results depend on the processing

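Across the alternatives, 781 of 900 values of the 10 genes kept their direction and their side of the threshold, 79 lost a call, 18 gained one and 22 changed sign. The cause of these changes was not tested. A limit of 1.7 on the fold removed 1 call, that of Aqp4 in MG132 neurites against somas. A limit of 1.7 on the absolute log2 fold change left 1 gene lower in MG132 somas (7 without the limit), 0 lower in MG132 neurites (5), 2 higher and 0 lower in Ctrl neurites against somas (4 and 1), and 2 higher and 0 lower in MG132 neurites against somas (6 and 1). Over all 14185 tested genes, it left 345 lower in MG132 somas and 311 lower in MG132 neurites. For neurites against somas it left 301 higher and 48 lower in Ctrl, and 290 higher and 72 lower in MG132 neurons. Scaling to total counts gave 3 lower in MG132 somas, 2 higher in Ctrl neurites, and 2 higher and 2 lower in MG132 neurites against somas. Using only the groups compared left 0 lower in Ctrl neurites (Gja1, adjusted p = 0.0274) and also lost Slc1a3 in MG132 somas (0.011), Slc1a2 in MG132 neurites (0.0157) and in Ctrl neurites against somas (0.0174), and Aqp4 (0.0163) and Aldh1l1 (0.0118) in MG132 neurites against somas. DESeq2 called 1 gene, Aqp4, in the difference between the responses, where edgeR called 0. It also called Aldh1l1 lower in MG132 somas (adjusted p = 0.00317) and higher in Ctrl neurites against somas (adjusted p = 0.00324). With 1 library left out, 4 to 8 genes were lower in MG132 somas, 3 to 5 lower in MG132 neurites, 3 to 4 higher and 0 to 1 lower in Ctrl neurites against somas, and 4 to 5 higher and 0 lower in MG132 neurites against somas. Over all tested genes these fits called 429 to 584 lower in MG132 somas and 409 to 589 lower in MG132 neurites. For neurites against somas they called 578 to 810 higher and 83 to 173 lower in Ctrl. In MG132 neurons they called 653 to 875 higher and 76 to 192 lower.

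The replicate number as a block gave 8 genes lower in MG132 neurites and 2 lower in MG132 neurites against somas. Over all 14185 tested genes it called 1613 and 910 lower in these comparisons, beside 804 and 307 without it. The block called Gfap lower in both fractions, at -0.62 in somas (adjusted p = 0.00355) and -0.74 in neurites (adjusted p = 0.000777). It also called Aldh1l1 lower in somas (adjusted p = 0.000588) and neurites (0.00742), Aldoc lower in neurites (9.96e-05), Aldh1l1 higher in Ctrl neurites against somas (0.000285), and Aldoc higher (0.00177) and Sox9 lower (0.00382) in MG132 neurites against somas. Over all genes it called 14 higher and 7 lower in the difference between the responses, none of them members. After group means were subtracted, libraries with the same number had correlations of 0.0972 to 0.248, 17 of 18 pairs over 0.1, and in 36 of 36 comparisons a library correlated best with its own number. Dates in the deposited names follow the number in 11 of 12 libraries. Per the study's methods, somas were scraped from the membranes that were then lysed as neurites, so fractions of the same insert would be paired. The correlations are a hint that the number marks such pairs, since the labels do not say what it stands for. The main model ignored any pairing, so genes it did not call may be called with the block.

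The sign of Aldoc in Ctrl neurites against somas (0.08) became -0.58 on total counts, -0.00059 without a filter and -0.00066 with the block, and ran from -0.34 to 0.27 with 1 library left out. In MG132 neurites against somas, total counts gave -0.071 for Aqp4 and -0.39 for Slc1a3. Differences between the responses that were not called changed sign as well. For Gfap (-0.04) the value was 0.081 without a filter, 0.059 with TMM factors computed without the most abundant gene and chromosome MT (chosen after the data were seen) and -0.51 to 0.32 with 1 library left out. On total counts it was -0.060 for Slc1a2 and -0.039 for Gja1. With 1 library left out it was -0.048 to 0.33 for Slc1a2, -0.10 to 0.37 for Gja1 and -0.34 to 0.11 for Glul.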

Other observations

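The libraries numbered 2 held the highest CPM of Gfap, Aldoc and Sox9 among the 3 libraries of their group in 4 of 4 groups. For Gfap the values of the number 2 libraries were 2553 CPM in Ctrl somas, 21600.1 CPM in Ctrl neurites, 1649 CPM in MG132 somas and 17484 CPM in MG132 neurites. Slc1a2 was highest in a number 2 library in 0 of 4 groups and Gja1 in 1 of 4. The coefficient of variation over the 3 libraries of a group was 1.04% to 13.5% for Aqp4 and 26.0% to 51.8% for Aldoc. No test was made of this pattern, which was noticed in the data.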
